A study of Nothobranchius furzeri with 20 samples.

Results

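A set of 150 genes stood higher in the brain of old than of young turquoise killifish, Nothobranchius furzeri, at much the same level in old fish with and without rotenone. The genes were chosen by their levels, in CPM (counts scaled to the library total, the usual unit for levels between libraries), from 26739 genes in 20 RNA sequencing libraries. Of these genes, 14271 had a mean of at least 5 CPM. In 358 of them, 2.51%, each of the 10 libraries of 27 weeks lay above each of the 10 libraries of 9 weeks. In 317 of the 358 the mean log2(CPM + 1) of old rotenone fish lay within 0.2 of that of old DMSO fish, and the 150 with the largest difference between the ages were taken. Differences between the ages, and between treatments at 27 weeks, thus chose the genes and are given below as a description, without a test.

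The turquoise killifish is an annual fish with a very short life, kept for the study of ageing. Ageing brains of many vertebrates are described as gaining transcripts of immune and glial genes and losing transcripts of neuronal and mitochondrial genes. Rotenone blocks complex I of the mitochondrial respiratory chain, which passes electrons from NADH to ubiquinone, and is widely used as a mitochondrial poison in models of neurodegeneration.

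Each of 4 groups held 5 libraries of whole-brain RNA. These were the solvent DMSO at 9 weeks and at 27 weeks, and rotenone at 9 weeks and at 27 weeks, at a dose of 1% LC50 (a fraction of the concentration that kills the median animal). All fish were males of strain MZM-04/10p, and neither the labels nor the files state the length or route of exposure. Replicate numbers below follow accession order and pair no libraries. The labels give no batch, so a batch shared by fish of 1 age cannot be told apart from age. They do not state that each library came from a separate fish, so spreads are between libraries.

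Library totals ran from 19433958 to 24159773 counts. The lowest count of any member in any library was 48, so none of the values below rests on a few reads. Genes carry Nfu_g_1 identifiers, which the files do not pair with names, and 0 of them matched RefSeq's genes of assembly NfurGRZ-RIMD1. The function of the members, and the labelled tissue by its marker genes, could therefore not be described. In RNA of a whole organ, more cells of a type and more RNA per cell cannot be told apart.

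Pooled, transcripts of the 150 genes made up more of the brain RNA at 27 weeks. Their summed level in DMSO fish of 9 weeks was 4705, 4607, 4591, 4738 and 4676 CPM in replicates 1 to 5. In rotenone fish of 9 weeks it was 4408, 4791, 4554, 4340 and 4458 CPM. At 27 weeks it was 8022, 6854, 6916, 7086 and 6521 CPM in DMSO and 7057, 7913, 6876, 7154 and 6828 CPM in rotenone. No old library overlapped a young one, which the choice fixes in advance. Old libraries of both treatments overlapped, and the choice holds their means close. In each treatment 1 old library stood above the other 4, DMSO replicate 1 and rotenone replicate 2. Group means were 4664 ± 62.7 CPM for DMSO and 4510 ± 175 CPM for rotenone at 9 weeks, and 7080 ± 565 and 7165 ± 438 CPM at 27 weeks (SD, n = 5 each). As a share of all counts this was 0.466% and 0.451% at 9 weeks and 0.708% and 0.717% at 27 weeks.

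**Figure D1:**
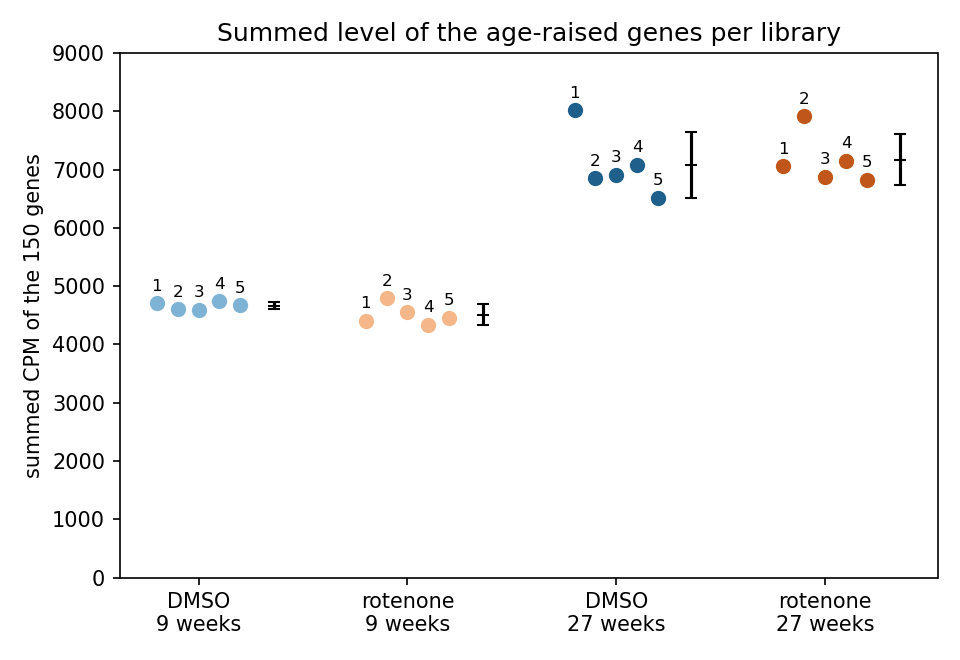
Summed CPM of the 150 genes in each library, by group; numbers beside points are replicates, and bars at the right of each group show its mean and SD (n = 5). The 10 libraries of 9 weeks sit between 4340 and 4791 CPM and the 10 of 27 weeks between 6521 and 8022 CPM, with DMSO replicate 1 and rotenone replicate 2 highest; the genes were chosen for the difference between the ages.

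Most members, 140 of 150, differed between the ages by 2-fold or less. The difference between the ages in mean log2(CPM + 1) ran from 0.45 to 1.41, with a median of 0.61 and a middle range of 0.51 to 0.71, where the median of all 14271 genes was 0.01. It exceeded 1 for 8 members and 0.75 for 31. As a ratio of mean CPM, the members ran from 1.37 to 3.49, with a median of 1.56, and 10 of them exceeded 2. The gap between the lowest old and the highest young library had a median of 0.13 and reached 0.51 on the same log2 scale.

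Several limits fell among very close values. The member ranked 150 had a difference of 0.4476 and the gene ranked 151 one of 0.4475. The largest difference between treatments at 27 weeks was 0.1994 among members, and the nearest gene beyond the limit had 0.2009. The member with the narrowest gap had 0.0002 and the nearest gene that missed it -0.0005. The lowest mean of a member was 5.27 CPM, and the nearest gene under the limit that met the other criteria had 4.99 CPM. Genes next to a limit therefore belong to the set or not by differences far smaller than the spread between libraries.

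Nfu_g_1_010375 had the largest difference, 1.41. At 9 weeks its level was 5.47, 6.29, 6.82, 6.88 and 5.41 CPM in DMSO and 5.05, 5.48, 4.30, 6.69 and 3.57 CPM in rotenone. At 27 weeks it was 44.7, 15.9, 14.2, 13.9 and 8.95 CPM in DMSO and 8.41, 48.11, 10.8, 15.3 and 14.8 CPM in rotenone. DMSO replicate 1 and rotenone replicate 2 stood far above the other 8 old libraries, which reached at most 15.9 CPM. As the choice demands, these 8 lay above all young ones. Without these 2 libraries the difference was 1.05.

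Nfu_g_1_012023, with the second largest difference of 1.19, was even among old libraries. Its level at 9 weeks was 33.3, 18.4, 19.7, 15.8 and 21.3 CPM in DMSO and 20.4, 30.4, 26.4, 18.1 and 17.0 CPM in rotenone. At 27 weeks it was 56.3, 41.6, 50.7, 57.9 and 48.9 CPM in DMSO and 46.4, 54.3, 48.3, 51.2 and 49.0 CPM in rotenone. Here the spread lay on the young side, with DMSO replicate 1 and rotenone replicate 2 of 9 weeks highest. The difference without both old libraries named above was 1.155.

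Members ranked 3 to 10 fell into the same kinds. The member ranked 5 had the widest gap of all, 0.51, with 15.9 to 24.7 CPM at 9 weeks and 35.5 to 46.09 CPM at 27 weeks. The member ranked 7 had 27.9 to 42.3 CPM at 9 weeks, and at 27 weeks 58.7 to 76.3 CPM in 8 libraries, 152 CPM in DMSO replicate 1 and 112 CPM in rotenone replicate 2. For the member ranked 3 these 2 libraries stood at 125 and 99.7 CPM and the other 8 at no more than 69.5 CPM, while its lowest old library, at 35.7 CPM, barely cleared its highest young one at 35.6 CPM. Ranks 6 and 9 had the same 2 libraries on top, and ranks 2, 4, 5, 8 and 10 did not.

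Both treatments showed the difference at a like size, which the choice favours. It holds the old groups within 0.2 of each other and every old library above every young one. In DMSO fish alone the difference ran from 0.30 to 1.31 with a median of 0.59, and in rotenone fish alone from 0.33 to 1.52 with a median of 0.61. It was larger in rotenone for 86 members and larger in DMSO for 64. At 27 weeks rotenone fish were higher than DMSO fish for 80 members and lower for 70, within the limit of 0.2 set by the choice. Of the 41 genes that parted the ages but missed that limit, 30 were higher and 11 lower in old rotenone than in old DMSO fish.

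Among old fish, 1 library of each treatment stood above the rest in many of these genes. Either DMSO replicate 1 or rotenone replicate 2 was the highest of the 10 old libraries in 101 of 150 members, 67.3%, against 24.4% of all 14271 genes. They were the highest 2 in 56 members, 37.3%, against 5.19% of all genes. DMSO replicate 1 lay above the mean of the other 4 libraries of its group in 124 members, by a median of 0.18 on the log2 scale. Rotenone replicate 2 did so in 138 members, by a median of 0.19. Over all genes these medians were -0.04 and -0.00. These shares are partly a product of the choice, which favours genes with a high mean at 27 weeks.

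**Figure D2:**
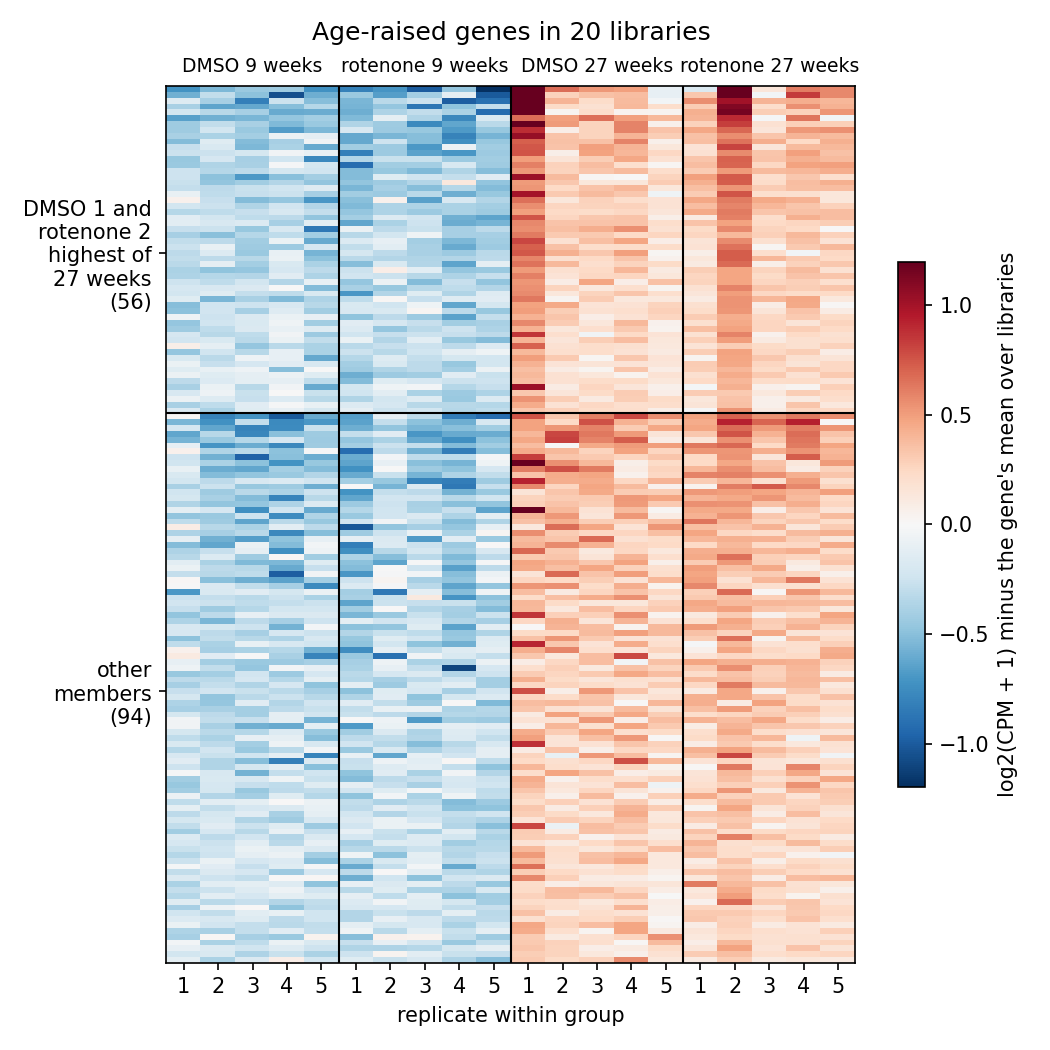
Each row is 1 of the 150 genes and each column 1 library; colour gives log2(CPM + 1) minus the gene's mean over the 20 libraries, cut at 1.2 on either side. The 56 genes above the line have DMSO replicate 1 and rotenone replicate 2 as the highest 2 of the 10 libraries of 27 weeks, and the 94 genes below it do not; in both blocks the ages do not overlap, as the choice demands.

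The same was measured with both libraries left out of the choice. When the rule was applied to the other 18 libraries, 360 genes met it, and 128 of the 150 then taken were members. In 48 of these 150, 32.0%, the 2 libraries that had played no part were the highest 2 of 27 weeks, against 5.19% of all genes. Of the 48, 46 were members, and the 2 libraries were singled out after seeing the data. The share is therefore not an independent measure. All 150 members kept the ages apart without them, which the choice fixes in advance. Their median difference was 0.57 without the 2 libraries and 0.61 with them. It was smaller without them in 132 members. The 56 members led by these libraries had a median difference of 0.65 with them and 0.56 without, and the other 94 members 0.59 and 0.57. For the 56, a smaller difference without them is fixed by how these members were defined.

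Both libraries tended to be raised in the same genes. Across the 150 members the deviation of DMSO replicate 1 from its group and that of rotenone replicate 2 from its group had a correlation of 0.62, and both were positive in 116. Across all 14271 genes the correlation was 0.45 and both were positive in 26.8%. These correlations are across genes of the same pair of libraries, which are not independent replicates. No label sets these libraries apart from the other 8 of their age.

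**Figure D3:**
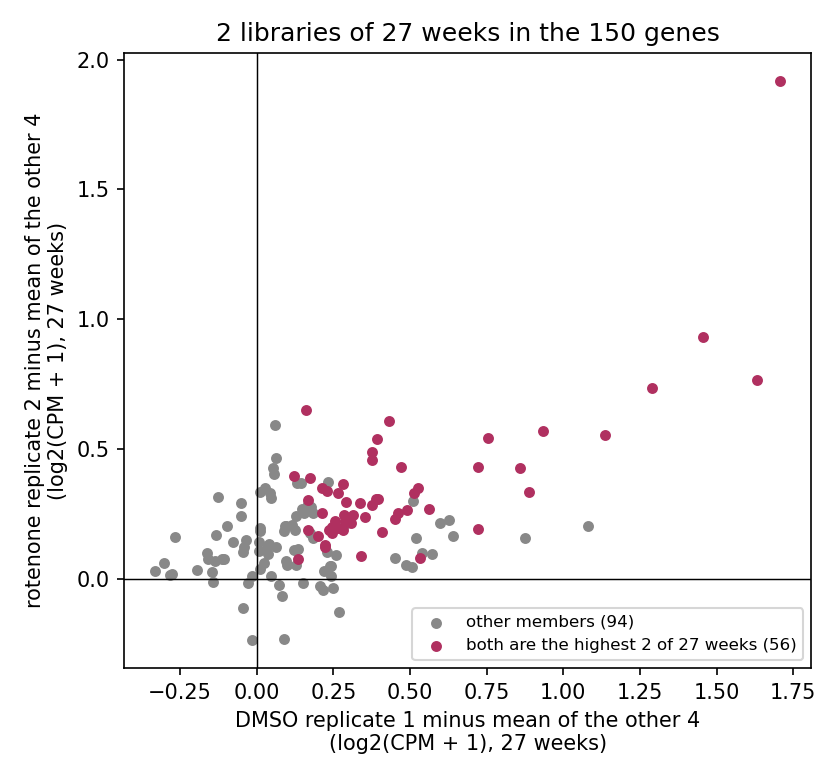
For each of the 150 genes, the level of DMSO replicate 1 (horizontal) and of rotenone replicate 2 (vertical) at 27 weeks minus the mean of the other 4 libraries of its own group, in log2(CPM + 1). Most of the 150 points, 116, lie above 0 on both axes; the 56 coloured points are genes with these libraries as the highest 2 of 27 weeks.

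Between DMSO libraries the SD of log2(CPM + 1) was larger at 27 than at 9 weeks in 94 of 150 members. Among all genes it was larger in 57.6%. In rotenone fish it was larger at 27 weeks in 59 of 150 members, against 31.2% of all genes. Without DMSO replicate 1 of 27 weeks the first number was 62 of 150, against 47.0% of all genes. Without rotenone replicate 2 of 27 weeks the second was 37 of 150, against 28.0%. In both treatments the share of members was then no longer above that of all genes. Median SDs of members were 0.14 and 0.16 at 9 and 27 weeks in DMSO, and 0.15 and 0.14 in rotenone. The choice bounds only the highest young and the lowest old library of every member. It sets no limit on how low a young or how high an old library may lie. These spreads are therefore neither bounded by the choice nor independent of it.

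Deviations of members from their group means went together within groups. Over the 20 libraries the median correlation between 2 members was 0.21 (11175 pairs), and 75.03% of pairs were positive, against 0.01 and 50.9% over all genes. At 27 weeks alone the median was 0.35 and at 9 weeks alone 0.08. Without DMSO replicate 1 and rotenone replicate 2 of 27 weeks it was 0.08, against 0.01 over all genes. For 150 genes that fell with age by the mirrored rule, the median was 0.33 over all libraries and 0.27 without these 2. Members were chosen for a large difference between the ages in 1 direction, so the contrast with all genes is not independent of the choice. All pairs share the same libraries and their depth, and no test was made.

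The difference between the ages was also read in libraries left out of the choice. Each library was left out in turn, and the 150 genes chosen on the other 19 were read in it. A left-out library of 27 weeks lay above all 10 young libraries in 124 to 149 of 150 genes, with a median over libraries of 143. The lowest number was that of DMSO replicate 4 and the highest that of rotenone replicate 2. A left-out library of 9 weeks lay below all 10 old ones in 135 to 149 genes, with a median of 141.5. In at least 148 of 150 genes the left-out library stood on its own age's side of the other age's mean. Libraries of the other age, against which it was read, had taken part in the choice. No share of all genes stands beside these numbers, so they describe only the genes chosen. Between 113 and 147 of the 150 genes chosen were members. By its definition, each member lies beyond all libraries of the other age in the left-out library too. The numbers above therefore largely restate membership. The number of genes meeting the rule was 321 to 393.

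Genes chosen in fish of 1 treatment were tested for age in the other treatment. The libraries compared took no part in the choice, though all 20 libraries entered the fit's estimate of the spread. From the 10 DMSO libraries alone, 961 genes with a mean of at least 5 CPM had every old library above every young one, and the 150 with the largest difference were taken, 42 of them members. In rotenone fish 92 of these 150, 61.3%, were called higher at 27 weeks, where 12.9% of all 19452 tested genes were (edgeR quasi-likelihood test, Benjamini-Hochberg adjusted p below 0.05 over all tested genes). None was called lower, against 18.2% of all genes, 0 had an unadjusted edgeR p below 0.05 in that direction and DESeq2 called 0 lower as well. Tested genes also include those with a mean under 5 CPM, which the choice left out. The shares of all tested genes are thus not matched for level. The estimate was above 0 in 147 of 150. Their median difference in log2(CPM + 1) was 0.85 in DMSO, where they were chosen, and 0.64 in rotenone. Old and young rotenone libraries did not overlap in 81 of them, 54.0%, against 12.9% of the 14271 genes.

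The reverse choice was made in rotenone and tested in DMSO fish. From the 10 rotenone libraries 1845 genes parted the ages, and of the 150 taken, 11 were members. In DMSO fish 44 of these 150, 29.3%, were called higher at 27 weeks, against 9.64% of all tested genes, and 0 lower, against 13.8% (edgeR, as above). Here too the shares of all tested genes are not matched for level. An unadjusted edgeR p below 0.05 for a fall was seen in 0, and DESeq2 called 0 lower. The estimate was above 0 in 149 of 150, and the median difference was 1.22 in rotenone and 0.69 in DMSO. Old and young DMSO libraries did not overlap in 29, 19.3%, against 6.75% of the 14271 genes. When DMSO replicate 1 and rotenone replicate 2 of 27 weeks were left out of both choice and test, 23 genes were called in DMSO, and 98 in the first comparison. No share of all tested genes stands beside these numbers, as the shares above belong to the fit of 20 libraries. The shares of both directions were not tested against each other.

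**Figure D4:**
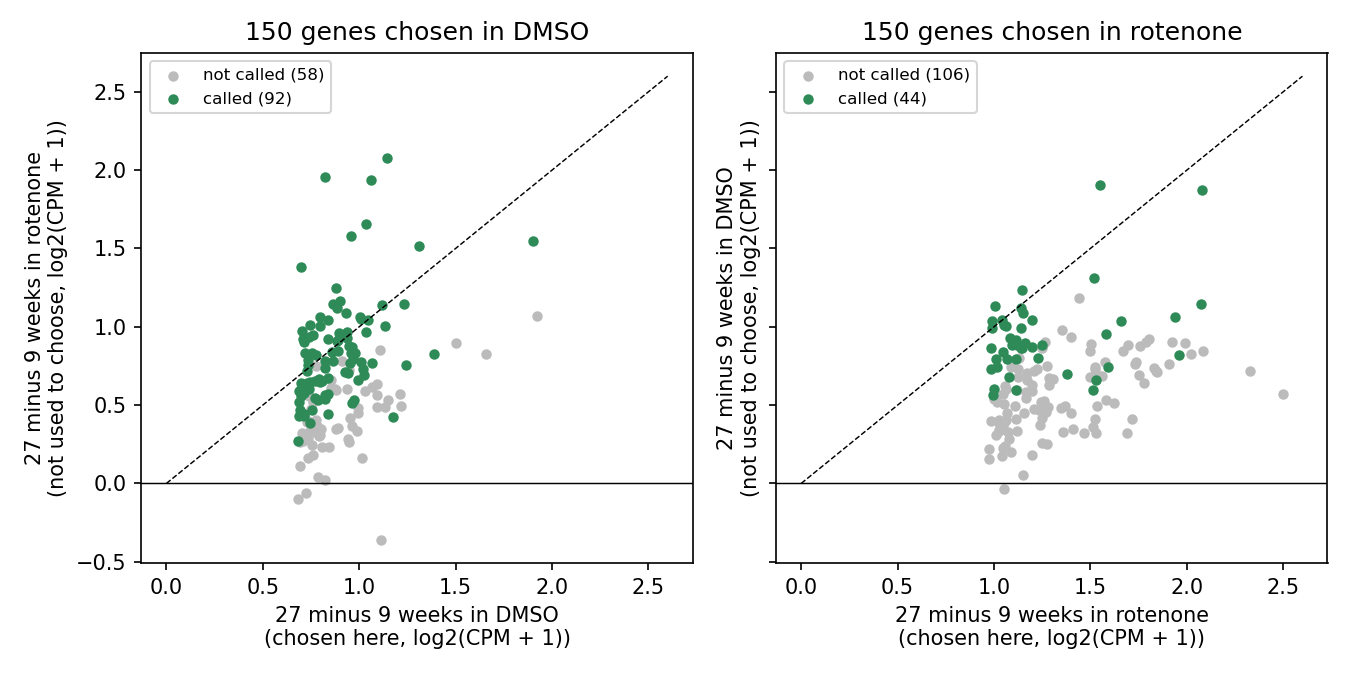
Difference between 27 and 9 weeks in mean log2(CPM + 1) for 150 genes chosen in DMSO (left) and 150 chosen in rotenone (right), in the treatment that chose them (horizontal) and in the other (vertical); the dashed line marks equal size, and coloured points were called higher in the other treatment by edgeR. On the left 92 and on the right 44 of 150 were called, and most points lie under the line. The largest differences were picked on the horizontal axis, and why those on the vertical axis are smaller was not tested.

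The choice set no direct limit on rotenone against DMSO at 9 weeks, but the libraries of this age took part in it. It bounded the highest young library and used the young mean for the ranking. The numbers for members at 9 weeks are therefore not independent of the choice. No member was called at this age, of 150 tested (edgeR adjusted p of at least 0.155), where 0.0257% of all tested genes were called. DESeq2 called 3 members, all lower with rotenone, and 0.529% of the genes it tested. At an unadjusted edgeR p below 0.05, 12 members, 8.0%, were lower with rotenone, where 3.69% of all tested genes were. In the other direction 3 members, 2.0%, were higher, where 3.3% were. Among genes with a mean of at least 5 CPM, as all members have, 4.41% were lower and 3.37% higher. The median log2 change of the members was -0.02 and that of all tested genes -0.00, and 84 members were below 0 and 66 above.

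Libraries of both treatments did not overlap at 9 weeks in 8 members, all lower with rotenone, 5.33% of the set. Among the 14271 genes 0.96% did not overlap in that direction and 0.659% in the other, in which there was no member. Of the 8, 7 were among the 56 members led by DMSO replicate 1 and rotenone replicate 2 at 27 weeks. These 56 had a median log2 change of -0.07 at 9 weeks, with 37 below 0, and the other 94 one of 0.00, with 47 below 0. Of the 317 genes that met the rule, 23, 7.26%, were lower at an unadjusted edgeR p below 0.05, and 7 higher. Among all genes with a mean of at least 5 CPM, 4.41% were lower and 3.37% higher. The choice bounds the highest of the 10 young libraries but sets no limit on how far 1 young group can fall below the other. The ranking of members uses the young mean, and its part in these numbers was not tested. Of the 167 genes that met the rule but were not members, 11, 6.59%, were lower at this p and 4 higher. Of the 150 genes that fell by the mirrored rule, 1 was lower and 3 were higher. In these falling genes both treatments did not overlap at 9 weeks in 0, lower with rotenone, and in 1, higher.

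Nfu_g_1_008080 was lowest with rotenone relative to DMSO among members with an unadjusted p below 0.05. At 9 weeks its level was 25.4, 25.6, 26.5, 29.8 and 28.9 CPM in DMSO and 16.9, 22.4, 19.4, 18.5 and 22.4 CPM in rotenone, without overlap. The log2 change was -0.45 ± 0.11 (SE), which did not pass the test across all genes (edgeR adjusted p = 0.209, and 0.0437 with DESeq2, in a range of 0.0437 to 0.411 over 14 alternatives). At 27 weeks its means were close, as the choice demands, 41.11 ± 7.63 CPM with DMSO and 40.6 ± 4.29 CPM with rotenone (SD, n = 5 each).

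Nfu_g_1_014470, an abundant member, had 248, 186, 190, 170 and 237 CPM in DMSO and 126, 192, 159, 134 and 167 CPM in rotenone at 9 weeks. Both groups overlapped, and the log2 change of -0.41 ± 0.11 (SE) did not pass (edgeR adjusted p = 0.237). At 27 weeks its means, held close by the choice, were 309 ± 21.4 CPM in DMSO and 335 ± 15.1 CPM in rotenone (SD, n = 5 each).

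Of the 3 members higher with rotenone at an unadjusted p below 0.05, the 2 with the largest change did not pass the test across all genes. Nfu_g_1_022713 had 9.66, 7.47, 5.45, 7.92 and 7.36 CPM in DMSO and 7.37, 11.4, 9.27, 9.26 and 11.5 CPM in rotenone at 9 weeks. Its log2 change was 0.37 ± 0.16 by SE, with an edgeR adjusted p of 0.640. Nfu_g_1_006782 had 9.58, 9.36, 9.93, 6.97 and 8.57 CPM in DMSO and 9.17, 10.5, 11.9, 9.52 and 12.9 CPM in rotenone. Its log2 change was 0.28 ± 0.11 by SE, with an edgeR adjusted p of 0.564. Groups overlapped in both genes.

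**Figure D5:**
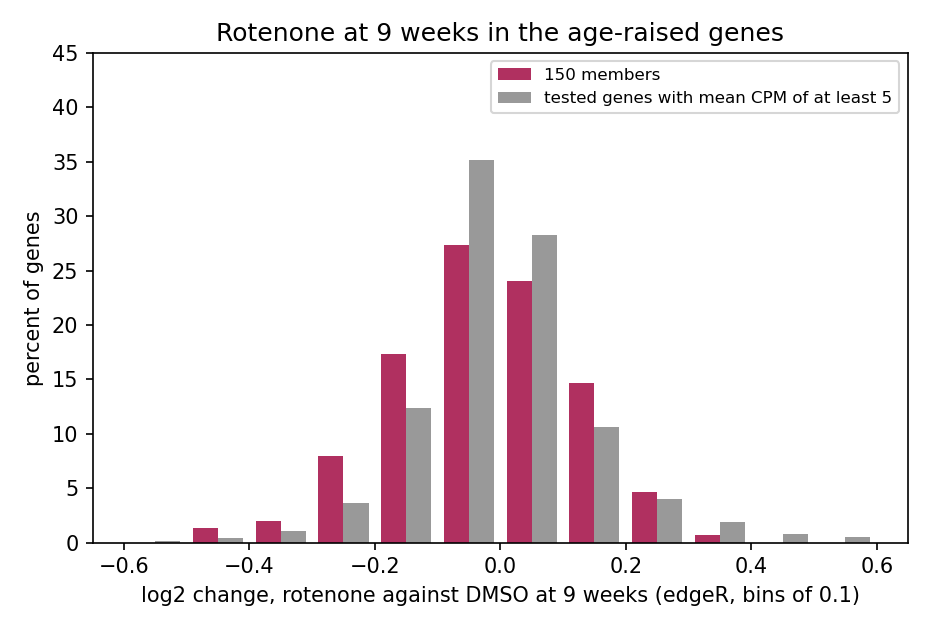
Share of genes, in percent, by log2 change of rotenone against DMSO at 9 weeks in bins of 0.1, for the 150 members and for 14270 tested genes with a mean of at least 5 CPM. Bins between -0.3 and -0.1 hold 8.0% and 17.3% of members against 3.60% and 12.3% of the genes, and the bin from 0.1 to 0.2 holds 14.7% against 10.6%; 1.23% of the genes lie outside the bins.

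The median level of members was lower than that of other genes. Per length, as RPKM (reads for each kilobase of a gene, relative to the library total) recomputed with each library's own total, their mean level had a median of 7.78 and a range of 0.716 to 213, against a median of 11.2 over all 14271 genes. In CPM the medians were 21.13 and 30.4. By tertiles of mean CPM over the 14271 genes, 60 members lay in the lower, 60 in the middle and 30 in the upper. None was among the 100 most abundant genes of the table. For the 150 genes that fell by the mirrored rule, the median level was 12.6 RPKM.

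Gene length, which the counts and RPKM of a gene give together, was near that of other genes. The median was 3198.5 bases for members, 3072 for all 14271 genes and 2859 for the 150 genes that fell. Of the members, 40 lay in the shortest, 54 in the middle and 56 in the longest tertile of length, with bounds at 2061 and 4344 bases, and of the genes that fell 54, 62 and 34. Within the lower and middle tertiles of mean CPM, members had longer medians than the genes there, 2675.5 against 2119 bases and 3617.5 against 3054 bases, and in the upper tertile shorter ones, 3151 against 4485 bases. Of the members, 0 were among the 200 longest and 1 among the 200 shortest of the 14271 genes.

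By the mirrored rule more genes fell than rose without regard to rotenone. Every old library lay below every young one in 690 genes, of which 578 met the limit on treatment at 27 weeks, against 358 and 317 for the rise. The largest 150 of each direction had similar medians of 0.61 and -0.58, while the largest fall, -2.33, exceeded the largest rise, 1.41. In 32 of these 150 falling genes DMSO replicate 1 and rotenone replicate 2 were the lowest 2 old libraries, against 4.597% of all genes.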

How the data were processed

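Total RNA of whole brains was made into TruSeq RNA libraries, per the labels' protocols. Tools named in the submitters' processing notes are featureCounts 1.4.6-p4, STAR 2.4.1d and bcl2fastq 1.8.4. Genome build, annotation, strand setting and read filters were not given in the sources, so reads of overlapping, antisense or near-identical genes cannot be told apart. Counts were deposited as whole numbers, without normalization. The deposited RPKM table divides them by gene length and library total. 99.98% of its values above 0 were recovered from the counts within 0.0011 when library totals were recycled from row to row, so the deposited RPKM values served only to recover gene lengths, and levels per length were recomputed.

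Members were chosen on log2(CPM + 1) with library totals. Tests on counts used edgeR 4.0.16 under R 4.3.3 (filterByExpr, 19452 genes, TMM, robust quasi-likelihood fit with 1 mean per group on all 20 libraries), with DESeq2 1.42.0 as an alternative. Log2 changes have the SE implied by the test. The tests were checked on simulated counts with known changes in 1 group only, a simpler setting than these data. No libraries within a group agreed within sampling noise (chi-square per degree of freedom of at least 7.80 over 40 pairs). Alternatives were other scalings, filters, limits of the rule and leaving out libraries. Identifiers were printed for the 2 members with the largest difference between the ages and, for rotenone at 9 weeks, the 2 with the largest rise and fall at an unadjusted p below 0.05, since none passed. Lists of cell type markers were not applied, as no identifier could be named. Members and lists were chosen with earlier results of these data known.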

Additional observations from a re-analysis of the deposited data

Results flagged for a closer look

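In 76 groups of 5 libraries, for library measures of the set, the printed genes and the 10 members with the largest difference, the farthest library was compared with its nearest neighbour. In 12 the gap exceeded 0.71 of the group's range. Chance alone does this in about 1 of 20 groups, which would be 3.8. The genes share libraries and were chosen for high values at 27 weeks, so this number tests nothing.

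All 12 concerned DMSO replicate 1 or rotenone replicate 2 of 27 weeks. The mean log2(CPM + 1) over the 150 members was 5.13 in rotenone replicate 2 and 4.95 in the nearest library of its group. Over the 56 members led by both libraries it was 5.49 in DMSO replicate 1 against 5.08 in the nearest, and 5.41 in rotenone replicate 2 against 5.11. These 56 were defined by both libraries being highest, so this lead, though not its size, was fixed in advance. Nfu_g_1_010375 stood at 44.7 CPM in DMSO replicate 1 against 15.9, and at 48.11 CPM in rotenone replicate 2 against 15.3. Nfu_g_1_022713 stood at 21.5 CPM in DMSO replicate 1 against 14.98.

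Among members ranked 3 to 10, DMSO replicate 1 was far from its group at rank 3 with 125 CPM against 50.0, at rank 6 with 47.12 CPM against 23.5, at rank 7 with 152 CPM against 67.8 and at rank 9 with 20.5 CPM against 6.60. Rotenone replicate 2 was far at rank 6 with 36.1 CPM against 26.2 and at rank 9 with 13.5 CPM against 8.45. Both library totals, 21817464 and 23735151 counts, lay within the range of the others.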

How the results depend on the processing

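The number of genes meeting the rule, 317, was 256 with TMM scaling and 236 to 358 with other limits, filters or pseudocounts, and 321 to 393 without 1 library; all 28 settings stayed within 1.5 times. Of the members, 137 were among the 150 taken with TMM scaling, 93 with a tolerance of 0.1 between treatments and 114 with none. For rotenone at 9 weeks, 0 members were called in every fit except DESeq2, with 3. Over all genes 5 were called, 91 with DESeq2, 1 with only both groups in the fit and 0 to 24 without 1 library (24 without DMSO replicate 5, 12 without rotenone replicate 3). Members lower at an unadjusted edgeR p below 0.05 numbered 11 to 16 without 1 library, and those higher 1 to 6. Of all tested genes, 2.63% to 4.64% were lower in these fits, and 1059 to 1710 genes had such a p in either direction. Genes chosen in DMSO and called in rotenone numbered 76 to 92 without 1 of the 10 rotenone libraries. Those chosen in rotenone and called in DMSO numbered 36 to 47 without 1 of the 10 DMSO libraries. The genes chosen were kept in these fits, and the choice was not redone without 1 library. With only the 2 groups compared in the fit, 104 and 33 genes were called. Without both 27-week libraries that stood apart, a setting chosen after seeing the data, 23 genes chosen in rotenone were called in DMSO. In the other direction 98 were called. No share of all tested genes stands beside the numbers of chosen genes called in these alternative fits, and that share can shift as well. The median correlation between members without both libraries was 0.083, and the cause was not tested. No paired analysis was possible because the labels give no replicate numbers shared between groups.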
